A study of Mus musculus with 64 samples.

Results

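Cathepsins are the proteases of the lysosome, and 9 genes that encode cathepsins of the macrophage lysosome (Ctsa, Ctsb, Ctsc, Ctsd, Ctsh, Ctsk, Ctsl, Ctss and Ctsz) were followed here by their transcript levels in mouse bone marrow-derived macrophages. They were chosen by name. Each was read from the brightest probe set annotated with that symbol alone, and 8 of the 9 had such a probe set, out of 18820 genes measured in this way. Both probe sets of Ctsb, a cysteine protease, were also annotated with Fdft1, so Ctsb has no value. The measurements were made on 64 microarrays in 32 groups of 2.

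Cathepsins are made as inactive precursors, sorted to the acidic lysosome and activated there by cleavage. Most, including the products of Ctsb, Ctsc, Ctsh, Ctsk, Ctsl, Ctss and Ctsz, are cysteine proteases, whereas Ctsd encodes an aspartic protease and Ctsa a serine carboxypeptidase. In macrophages they digest engulfed material, and some, cathepsin S foremost, degrade the invariant chain of MHC class II molecules and cut antigens into the peptides these present, while cystatins and some serpins inhibit them.

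The cells came from male BALB/c or C57BL/6 mice of 7 to 8 weeks, and all groups, untreated ones included, were grown from bone marrow in CSF1 at 10000 U/ml, the growth factor on which these macrophages depend, and plated at 200000 cells per well. Treatment began on day 7. In BALB/c cells it was IFN-beta or IFN-gamma, each at 10 U/ml, or 5 ng/ml of LPS (lipopolysaccharide, a component of the bacterial outer membrane). In C57BL/6 cells it was LPS alone, at doses of 0.5, 5 and 50 ng/ml. Samples were collected after 1, 2, 4, 8 and 24 h, and at 0 h from untreated cells of each strain. The 2 arrays of a group came from separate wells, so p-values measure the spread between wells. There were no untreated wells later than 0 h, so a change over a course combines the treatment with time in culture. The 3 courses of a strain share its 0 h wells. Strain cannot be told apart from the preparation of the cells. In bulk RNA, fewer cells of a type and less RNA per cell cannot be told apart.

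Values are log2 of the deposited intensity, the normalized brightness of a probe set, and a difference of 1 on this scale is a 2-fold change. Levels are compared only within a gene. Each course was tested with limma over its 5 differences from 0 h together, with Benjamini-Hochberg adjustment over all 18820 genes. A gene passed the test with an adjusted p under 0.05, and it was called when it also differed by at least 1 on the log2 scale at 1 or more times. The direction and the size given for a gene are those of its largest difference.

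The 8 cathepsins were all above the 40th percentile of mean brightness over all genes, as were 9 of 10 macrophage markers, Cd163 being the exception. Of 7 dendritic cell markers only Ccr7 and Cd209a were above it. Of 8 fibroblast markers 4 were, and of 8 granulocyte markers 3 were. Of 8 osteoclast markers 6 were, of 4 B cell markers 1 was, and of 6 T cell and NK cell markers 1 was. Probe sets with no annotated gene separated 11 arrays, called the smaller batch here, from the other 53, the larger batch. The labels do not give this division. The smaller batch held 1 array of each of 9 groups and both arrays of IFN-beta at 4 h. Of all genes, 37.5% differed between the batches within groups. A further 5 arrays stood apart from their partner. The C57BL/6 arrays at 0 h, labelled as untreated, held the activation genes Nos2 and Cxcl10 at a level above that after 2 h of LPS at 0.5 ng/ml, which goes against their label as untreated. The inducible nitric oxide synthase gene Nos2 was at 10.63 and 10.45 there, against 3.54 and 3.78 in BALB/c cells at 0 h, and at 4.19 and 4.01 in C57BL/6 cells after 2 h of LPS at 0.5 ng/ml. The chemokine gene Cxcl10 was at 12.42 and 12.35 in C57BL/6 cells at 0 h, against 6.64 and 6.82 in BALB/c cells at 0 h, and at 10.62 and 10.79 in C57BL/6 cells after those 2 h of LPS. Genes of MHC class II were not above that LPS level in C57BL/6 cells at 0 h. Ciita read 5.37 and 5.83 at 0 h, against 5.53 and 5.67 after LPS. Cd74 (10.85 and 10.84, against 11.04 and 11.05) and H2-Ab1 (9.73 and 9.72, against 10.00 and 9.81) were lower at 0 h. Changes counted from 1 h are given where they move a value by over 1.5 times or end a call.

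The upstream sequences of the members are shown because the treatments act through transcription factors with known binding motifs. RefSeq promoters (GRCm38.p6) were at hand for 7 of the 9 genes, as 8 stretches of 250 bases before a transcription start, with 2 for Ctsa. Ctsb and Ctsh are not among them. Each was searched on both strands for GAAA followed by any 2 bases and GAAA, a type of interferon-stimulated response element, and for CACGTG, an E-box of the type bound by TFEB and its relatives at lysosomal genes. Of all 32851 promoters in the table, 2.98% held the first motif and 6.02% the second. Of the 8 cathepsin promoters, 1 held the first (Ctss) and 3 the second (Ctsd, Ctsl and the second start of Ctsa). The 3 stretches below, 5′ to 3′ on the gene's own strand with the matches in capitals, lie at chr3:95526536-95526785 (plus strand) for Ctss, chr13:64370521-64370770 (minus) for Ctsl and chr7:142387828-142388077 (minus) for Ctsd.
Ctss: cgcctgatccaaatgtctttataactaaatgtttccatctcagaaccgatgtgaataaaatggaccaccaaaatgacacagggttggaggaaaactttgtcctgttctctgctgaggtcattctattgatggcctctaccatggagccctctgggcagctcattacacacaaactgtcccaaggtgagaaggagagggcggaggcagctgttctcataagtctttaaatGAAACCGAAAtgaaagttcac
Ctsl: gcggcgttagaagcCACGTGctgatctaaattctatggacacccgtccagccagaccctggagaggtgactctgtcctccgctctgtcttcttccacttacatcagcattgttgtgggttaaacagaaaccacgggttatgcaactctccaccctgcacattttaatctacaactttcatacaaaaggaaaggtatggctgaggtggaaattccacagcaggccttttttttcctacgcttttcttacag
Ctsd: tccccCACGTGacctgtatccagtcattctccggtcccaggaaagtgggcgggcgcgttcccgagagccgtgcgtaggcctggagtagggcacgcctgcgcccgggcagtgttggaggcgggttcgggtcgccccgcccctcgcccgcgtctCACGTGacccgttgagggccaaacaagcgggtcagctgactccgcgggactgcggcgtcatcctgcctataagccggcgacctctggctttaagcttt
The match lay 21 bases before the start in Ctss, 236 in Ctsl, and 245 and 98 in Ctsd. A match is a description of these letters and not a measured site.

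The 8 cathepsins differed in how far their levels moved. The group means of Ctsh, an aminopeptidase of the lysosome, spanned 3.01 on the log2 scale (8.08-fold), and their SD over the 32 groups was larger than that of 97.2% of genes. Those of Ctsc, which encodes dipeptidyl peptidase I, the activator of granule serine proteases, spanned 2.03 (4.09-fold). Ctsk, best known for collagen breakdown by osteoclasts, spanned 1.57 (2.96-fold), and Ctsl, an endopeptidase, spanned 0.91 (1.88-fold). The other 4 stayed within narrow limits, with 0.63 for Ctsz, a carboxypeptidase, 0.58 for Ctss, 0.51 for Ctsd and 0.44 for Ctsa. The SDs of Ctsd and Ctsa were larger than those of only 1.83% and 0.452% of genes.

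Ranked by group mean, Ctsh was highest after 24 h of LPS in C57BL/6 cells (10.67 at 0.5 ng/ml, 10.80 at 5 ng/ml, 10.88 at 50 ng/ml) and after 24 h of IFN-gamma in BALB/c cells (10.63). It was lowest in BALB/c cells after 2 h of IFN-beta (7.86). Of the 31 pairs of neighbours in this order 27 overlapped. The widest gaps lay on either side of LPS at 8 h in BALB/c cells (9.29). They lay between C57BL/6 LPS 50 ng/ml at 2 h (9.86) and BALB/c IFN-beta at 24 h (8.73). Ctsh read higher in the smaller batch, and these means are not corrected for it. At 24 h the arrays of the smaller and larger batch read 11.05 and 10.30 with LPS at 0.5 ng/ml, and 9.03 and 8.42 with IFN-beta. Ctsc ran from 12.31 after 24 h of IFN-gamma, through 11.90, 11.92 and 11.98 after 24 h of LPS at 0.5, 5 and 50 ng/ml in C57BL/6 cells, down to 10.28 after 1 h of IFN-gamma. For this gene 24 of 31 neighbours overlapped, and 6 of the 7 gaps were among its 8 highest groups.

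Ctsl had its highest mean after 8 h of LPS in BALB/c cells (12.59) and its lowest after 24 h of LPS at 5 ng/ml in C57BL/6 cells (11.67). Ctsk ran from 7.84 after 8 h of IFN-beta, which was clear of the next group (7.50), to 6.27 in C57BL/6 cells at 0 h. Ctss, Ctsd and Ctsa were each highest after 24 h of IFN-beta, at 12.61, 13.55 and 13.03. Between 25 and 30 of the 31 neighbours overlapped for these 5 genes and Ctsz.

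**Figure D1:**
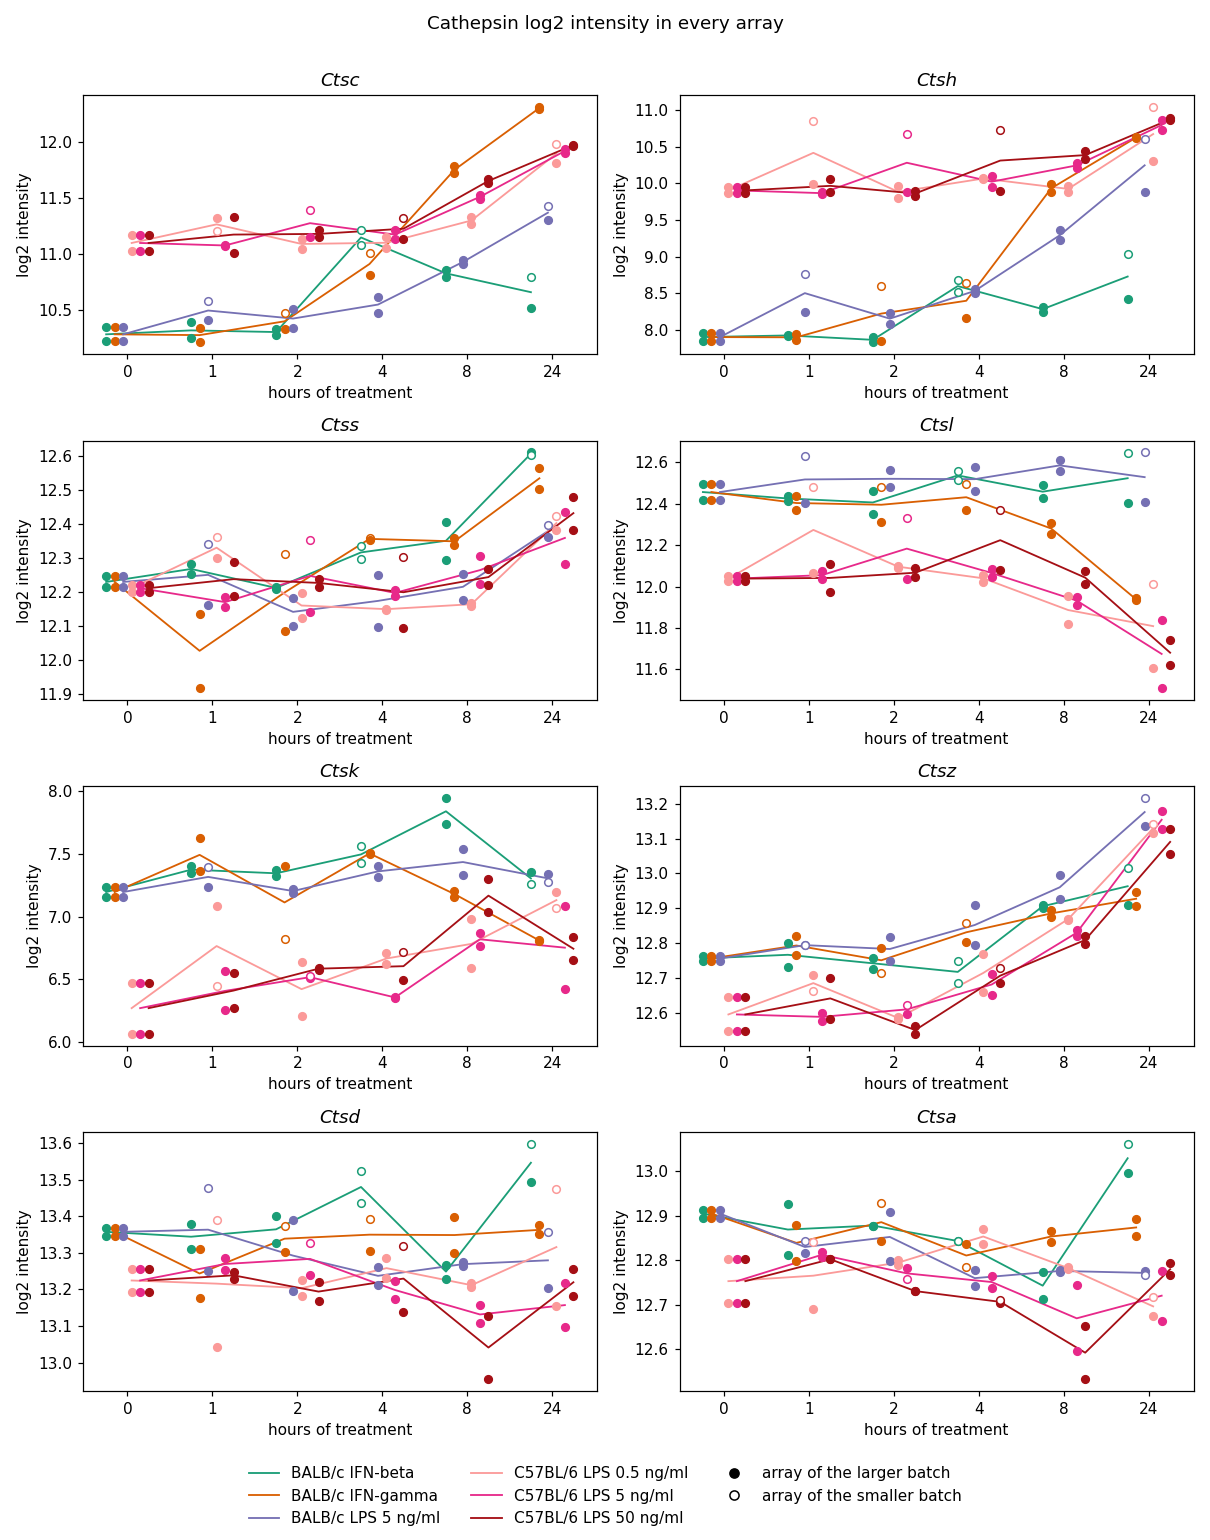
Log2 intensity of each of the 8 cathepsins (a panel each) against time in h for the 6 courses. Points are single arrays, lines join the means of 2 arrays, open points are arrays of the smaller batch, and the 0 h arrays of a strain stand at the start of each of its courses. Ctsc and Ctsh climb by 24 h in the IFN-gamma and LPS courses, whereas Ctsa and Ctsd move over 0.44 and 0.51 across all groups.

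Ctsh and Ctsc rose with IFN-gamma. Ctsc read 10.35 and 10.22 at 0 h, 10.34 and 10.21 at 1 h, 10.33 and 10.47 at 2 h, 11.01 and 10.81 at 4 h, 11.72 and 11.79 at 8 h and 12.30 and 12.32 at 24 h. Its arrays at 4, 8 and 24 h all lay above those at 0 h and did not overlap them. The rise was 2.02 ± 0.11 at 24 h (4.07-fold, standard error from limma, adjusted p = 1.3e-19), and 24 h of IFN-gamma was the highest of the 32 groups for this gene.

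Ctsh followed a similar course with IFN-gamma. It read 7.96 and 7.84 at 0 h, 7.86 and 7.93 at 1 h, 7.85 and 8.59 at 2 h, 8.63 and 8.16 at 4 h, 9.88 and 9.99 at 8 h and 10.64 and 10.62 at 24 h. The arrays at 4, 8 and 24 h were all above 0 h. The higher array at both 2 h and 4 h belonged to the smaller batch, and with the batch as a covariate the differences from 0 h were -0.03 at 2 h and 0.15 at 4 h, where without it they were 0.32 and 0.50. The arrays at 8 and 24 h were all of the larger batch, and the rise of 2.73 ± 0.26 at 24 h (6.62-fold, adjusted p = 4.3e-12) was 2.73 with the covariate too.

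Ctsl moved the other way. With IFN-gamma it read 12.26 and 12.31 at 8 h and 11.94 and 11.93 at 24 h, against 12.49 and 12.42 at 0 h. Both late pairs lay below the 0 h pair, and the fall at 24 h was 1.43-fold (-0.52 ± 0.13, adjusted p = 0.0082). Ctsk read 6.81 and 6.81 at 24 h, against 7.23 and 7.16 at 0 h, a fall with an adjusted p of 0.022 (-0.39 ± 0.18). Without either 24 h array the adjusted p of Ctsl went up to 0.11, and without any of 4 arrays that of Ctsk went up to 0.096. Ctss, the main invariant chain protease of antigen-presenting cells, was at 12.57 and 12.50 at 24 h, against 12.25 and 12.21 at 0 h, and rose by 0.30 ± 0.09 (adjusted p = 0.00039). Counted from 1 h these 2 changes were larger, at -0.68 for Ctsk and 0.51 for Ctss. Thus 3 cathepsins rose and 2 fell, 5 of 8, where 28.9% of all genes passed this test (11.8% up, 17.1% down). Of the 8, 2 (Ctsc and Ctsh) were called, where 5.37% of all genes were. Ctsa, Ctsd and Ctsz did not pass.

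With IFN-beta 5 cathepsins passed the test, and the rise of Ctsc was largest at 4 h. Ctsc read 10.25 and 10.39 at 1 h, 10.28 and 10.33 at 2 h, 11.09 and 11.21 at 4 h, 10.80 and 10.86 at 8 h and 10.52 and 10.80 at 24 h. The 4 h pair was the highest and all later arrays remained above both 0 h arrays. The rise was 0.87 ± 0.11 at 4 h (1.82-fold, adjusted p = 6.2e-09). Since both 4 h arrays belonged to the smaller batch, no value within the larger batch exists for that time, and with the batch as a covariate it was 0.71. At 8 h, where both arrays were of the larger batch, the difference was 0.55 with or without the covariate.

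Ctss read 12.30 and 12.41 at 8 h and 12.61 and 12.60 at 24 h of IFN-beta, against 12.25 and 12.21 at 0 h, and rose by 0.38 ± 0.09 at 24 h (1.30-fold, adjusted p = 0.0032). The 24 h pair lay above all other arrays of this gene. Ctsz rose by 0.21 ± 0.07 at 24 h (adjusted p = 0.012), and Ctsa, the protective protein of beta-galactosidase and neuraminidase, had its largest difference at 8 h (-0.16, adjusted p = 0.036). That difference was -0.0092 after quantile normalization of the arrays. Ctsa then stood at 13.00 and 13.06 at 24 h, above its 12.91 and 12.90 at 0 h. Ctsh was the least settled of these. Its difference at 4 h was 0.70 without and -0.0037 with the batch covariate, and at 24 h, where its arrays read 8.42 and 9.03, it was 0.83 ± 0.26 without the covariate (adjusted p = 0.012), 0.48 with it (adjusted p = 1.5e-06) and 0.52 within the larger batch. Without replicate 2 of IFN-beta at 24 h the adjusted p was 0.078 for Ctsh and 0.097 for Ctsz, and that of Ctsa went up to 0.19 without any of 6 of the 12 arrays. Ctsk read 7.94 and 7.73 at 8 h, its highest group of all, against 7.23 and 7.16 at 0 h. These arrays did not overlap, yet the gene missed the threshold over the course (0.64 ± 0.18, adjusted p = 0.059), and with the batch covariate its adjusted p was 0.044.

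Over the IFN-beta course 4 cathepsins rose and Ctsa passed with a difference below 0 that quantile normalization nearly removed, 5 of 8 in all, where 37.4% of all genes passed (15.1% up, 22.3% down). None was called by limma with the minimum change, where 7.92% of all genes were, and 6 of 8 had an unadjusted p under 0.05. The summed intensity of the 6 T cell and NK cell markers was 173 to 194 at 24 h of IFN-beta, against 114 to 120 at 0 h. Of these markers only Cd4 was above the 40th percentile, and their part in the 24 h results was not tested.

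Set directly against each other, IFN-beta and IFN-gamma cells differed most at 24 h. Ctsc read 10.52 and 10.80 with IFN-beta, against 12.30 and 12.32 with IFN-gamma, a 3.13-fold lower level with IFN-beta (-1.65 ± 0.11, adjusted p = 1.2e-14). Ctsh read 8.42 and 9.03, against 10.64 and 10.62, 3.73-fold less with IFN-beta (-1.90 ± 0.26, adjusted p = 7.9e-08), or -2.25 with the batch covariate. Ctsk at 8 h (7.94 and 7.73, against 7.15 and 7.21) and Ctsl at 24 h (12.40 and 12.64, against 11.94 and 11.93) were higher with IFN-beta, by 0.66 (adjusted p = 0.02) and 0.59 (adjusted p = 0.012). Both went above the threshold without either IFN-gamma array of that time and without 1 IFN-beta array (replicate 1 at 8 h for Ctsk, replicate 2 at 24 h for Ctsl), up to 0.11 for Ctsk and 0.19 for Ctsl. In all 4 of 8 cathepsins passed, where 18.3% of all genes did (9.02% up, 9.23% down), and Ctsc and Ctsh were called, where 3.96% of all genes were.

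In BALB/c cells 3 cathepsins rose with LPS at 5 ng/ml: Ctsh, Ctsc and Ctsz. Ctsh read 7.96 and 7.84 at 0 h, 8.24 and 8.76 at 1 h, 8.08 and 8.22 at 2 h, 8.56 and 8.50 at 4 h, 9.22 and 9.36 at 8 h and 9.88 and 10.61 at 24 h. Every LPS array was above both 0 h arrays. The higher array at 1 h and at 24 h belonged to the smaller batch. The rise at 24 h was 2.35 ± 0.26 (5.09-fold, adjusted p = 2.3e-09), against 2.00 with the batch covariate and 1.98 within the larger batch.

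Ctsc with LPS read 10.41 and 10.59 at 1 h, 10.34 and 10.51 at 2 h, 10.48 and 10.62 at 4 h, 10.95 and 10.91 at 8 h and 11.31 and 11.44 at 24 h. From 4 h on it was above the 0 h values of 10.35 and 10.22, and the rise at 24 h was 1.09 ± 0.11 (2.13-fold, adjusted p = 6.9e-11). Counted from 1 h it was 0.88, under the minimum change. Ctsz reached its highest group of all 32 here, with 13.14 and 13.22 at 24 h, against 12.75 and 12.76 at 0 h, a rise of 0.42 ± 0.07 (1.34-fold, adjusted p = 7.8e-06).

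These 3 rises were 3 of 8, where 47.7% of all genes passed (20.6% up, 27.1% down). Ctsc and Ctsh were called, where 17.2% of all genes were. The summed intensity of the 7 dendritic cell markers moved with them, at 607 to 724 at 24 h of LPS, against 152 to 166 at 0 h, and that of the 8 fibroblast markers was 484 to 572, against 195 to 207. These sums rest on few of their genes. Over all 64 arrays Ccr7 reached 9.32 on the log2 scale, and no other dendritic cell marker went above 5.78. Of the fibroblast markers Pdgfrb reached 9.20 and Dcn 7.80, and no other went above 5.54. At 24 h of IFN-gamma the dendritic cell sum was 138 to 144 and the fibroblast sum 156 to 181. The part of these markers in the LPS results was not tested.

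Between the treatments of BALB/c cells, IFN-gamma exceeded LPS for Ctsc at 24 h (12.30 and 12.32, against 11.31 and 11.44) by 0.94 ± 0.11 (1.91-fold, adjusted p = 4.2e-11), or 1.01 with the batch covariate. Ctsl was lower with IFN-gamma at 24 h (11.94 and 11.93, against 12.41 and 12.65) by -0.59 (adjusted p = 0.0013). Ctsh exceeded LPS by 0.64 at 8 h without passing (adjusted p = 0.069). Its 24 h difference with the batch covariate was 0.73, and its adjusted p was then 2.3e-11. With Ctss, which differed by -0.22 at 1 h (adjusted p = 0.036, up to 0.12 without any of 9 of the 20 arrays), 3 of 8 passed, where 42.1% of all genes did (23.8% up, 18.3% down), and none was called by limma, where 13.6% of all genes were. Of the 8, 5 had an unadjusted p under 0.05.

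IFN-beta against LPS gave lower levels of Ctsc and Ctsh with IFN-beta at 24 h. Ctsc read 10.52 and 10.80, against 11.31 and 11.44 (-0.71, adjusted p = 1.2e-07), and Ctsh read 8.42 and 9.03, against 9.88 and 10.61 (-1.52, 2.87-fold lower, adjusted p = 7.5e-06). Each side of these pairs held 1 array of the smaller batch. These were the 2 of 8 that passed, where 41.2% of all genes did (23.7% up, 17.5% down), and Ctsh was called, where 14.3% of all genes were.

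**Figure D2:**
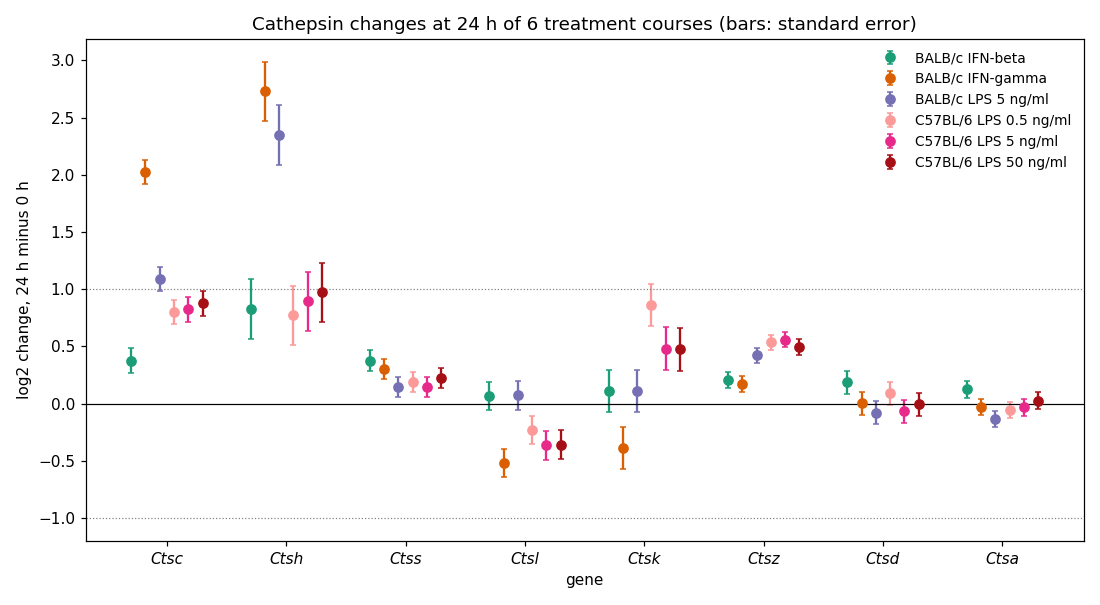
Log2 change at 24 h from 0 h for each of the 8 cathepsins in the 6 courses, with bars for the standard error from limma (2 arrays per group) and dotted lines at the minimum change of 1. Ctsh and Ctsc stand highest in the IFN-gamma course, at 2.73 and 2.02, and Ctsl lies below 0 there at -0.52.

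In C57BL/6 cells 3 doses of LPS were followed. Ctsc read 11.03 and 11.17 at 0 h. At 8 h it read 11.27 and 11.33 at 0.5 ng/ml, 11.50 and 11.53 at 5 ng/ml and 11.64 and 11.67 at 50 ng/ml. At 24 h it read 11.82 and 11.98, 11.90 and 11.95, and 11.98 and 11.97 in the same order of doses. The 8 h pairs lay in the order of the doses without overlap, and the 24 h pairs lay close together, all above 0 h. The rises at 24 h were 0.80 (adjusted p = 8.6e-08), 0.82 (adjusted p = 2e-08) and 0.88 (adjusted p = 3e-09), each with a standard error of 0.11.

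Ctsz rose at each dose. It read 12.55 and 12.64 at 0 h, then at 24 h 13.12 and 13.14 at 0.5 ng/ml, 13.13 and 13.18 at 5 ng/ml and 13.05 and 13.13 at 50 ng/ml. All 6 arrays at 24 h exceeded those at 0 h by more than the spread within any pair. The rises were 0.54 (adjusted p = 4.2e-08), 0.56 (adjusted p = 5.5e-09) and 0.50 (adjusted p = 7.9e-08). The 4 LPS groups of 24 h, from both strains, were the 4 highest of the 32 for Ctsz.

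Ctsh read 9.86 and 9.95 at 0 h and, at 24 h, 10.30 and 11.05 at 0.5 ng/ml, 10.73 and 10.87 at 5 ng/ml and 10.89 and 10.86 at 50 ng/ml. The value of 11.05 came from the smaller batch. The rises were 0.77 (adjusted p = 0.045), 0.89 (adjusted p = 0.025) and 0.97 ± 0.26 (adjusted p = 0.0072). At 0.5 ng/ml the rise was 0.42 with the batch covariate (adjusted p = 0.00059), 0.40 within the larger batch and 0.26 counted from 1 h. At that dose the adjusted p went above 0.05 when any of 10 of the 12 arrays was left out, up to 0.35. At 5 ng/ml it was 0.09 without the arrays that stood apart and up to 0.18 without either 24 h array, and at 50 ng/ml it was 0.057 without replicate 1 of 24 h.

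Ctsl fell at the upper doses. It read 11.51 and 11.84 at 24 h of 5 ng/ml and 11.74 and 11.62 at 24 h of 50 ng/ml, against 12.03 and 12.05 at 0 h, with differences of -0.36 at both (adjusted p = 0.016 at 5 ng/ml and 0.012 at 50 ng/ml). At 5 ng/ml the adjusted p went up to 0.34 without replicate 2 at 2 h or replicate 1 at 24 h, and at 50 ng/ml it was 0.19 without replicate 2 at 24 h. At 0.5 ng/ml its largest difference was 0.24 at 1 h (adjusted p = 0.035), from arrays at 12.07 and 12.48 of which the higher belonged to the smaller batch. Without replicate 2 at 1 h, replicate 1 at 8 h or replicate 1 at 24 h the adjusted p was above 0.05, up to 0.25. With the batch covariate that difference was 0.10, and the largest was then -0.36, at 24 h.

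Ctsk read 6.07 and 6.47 at 0 h, the lowest group of all for this gene. With LPS at 0.5 ng/ml it read 7.19 and 7.07 at 24 h (a rise of 0.86, adjusted p = 0.0029). At 5 ng/ml it read 6.87 and 6.77 at 8 h and did not pass (0.55, adjusted p = 0.055). At 50 ng/ml it read 7.04 and 7.30 at 8 h (a rise of 0.90 ± 0.18, 1.86-fold, adjusted p = 0.0016). The 2 arrays at 0 h lay well apart. Without replicate 2 of 0 h the rise at 50 ng/ml was 1.10, and without replicate 2 of 8 h its adjusted p was 0.051. Counted from 1 h the rise at 0.5 ng/ml was 0.37.

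At 0.5 ng/ml 5 of 8 cathepsins passed, 4 of them with rises and Ctsl with a 1 h difference above 0 that was 0.027 within the larger batch, where 40.1% of all genes passed (20.1% up, 20% down). At 5 ng/ml 3 rose and 1 fell (Ctsl), where 46.4% passed (20.4% up, 26% down). At 50 ng/ml 4 rose and 1 fell (Ctsl), where 46.4% passed (19.9% up, 26.5% down). No cathepsin was called at any dose by limma, where 9.11%, 14.3% and 15% of all genes were called at 0.5, 5 and 50 ng/ml, and 6, 5 and 5 of the 8 had an unadjusted p under 0.05. The summed dendritic cell markers moved with these results too, at 353 to 363 at 24 h of 0.5 ng/ml, 571 to 571 at 5 ng/ml and 575 to 673 at 50 ng/ml, against 188 to 195 at 0 h. The fibroblast sum at 24 h was 206 to 229 at 0.5 ng/ml, 338 to 343 at 5 ng/ml and 335 to 343 at 50 ng/ml, against 164 to 174 at 0 h. The granulocyte sum at 24 h was 168 to 168, 149 to 175 and 158 to 159 in the same order of doses, against 216 to 257 at 0 h. Over all arrays the dendritic cell markers ran highest in Ccr7 and the fibroblast markers in Pdgfrb and Dcn, as given above. The part of these markers was not tested.

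Tested against each other over the 5 times, 50 and 0.5 ng/ml did not differ in any of the 8 cathepsins by limma, where 25.3% of all genes passed (9.25% up, 16.1% down) and 3.72% were called, although 3 of 8 had an unadjusted p under 0.05. The largest difference for Ctsc was 0.35 ± 0.11 at 8 h (adjusted p = 0.088) and for Ctsh 0.46 ± 0.26 at 8 h (adjusted p = 0.36). With the batch as a covariate Ctsa, Ctsc and Ctsh passed, with Ctsc at 0.35 (adjusted p = 0.015) and Ctsh at 0.46 at 8 h and 0.55 at 24 h (adjusted p = 2.7e-06).

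The strains differed in the arrays labelled 0 h. Ctsh read 7.96 and 7.84 in BALB/c cells at 0 h, against 9.86 and 9.95 in C57BL/6 cells at 0 h, a 4.01-fold lower level in BALB/c (-2.01 ± 0.26, adjusted p = 2.5e-07), and with the batch covariate the difference was again -2.01. Ctsc read 10.35 and 10.22, against 11.03 and 11.17, and was 1.76-fold lower in BALB/c (-0.82 ± 0.11, adjusted p = 2.8e-07). Both pairs were far apart relative to their spread, and all 4 arrays were of the larger batch.

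Ctsk and Ctsl were higher in BALB/c. Ctsk read 7.23 and 7.16, against 6.07 and 6.47 in C57BL/6 cells (0.92 ± 0.18, 1.90-fold, adjusted p = 0.00036). Ctsl read 12.49 and 12.42, against 12.03 and 12.05 (0.42 ± 0.13, 1.34-fold, adjusted p = 0.025). The Ctsl result went above the threshold when any of the 4 arrays was left out, up to an adjusted p of 0.19. Thus 2 cathepsins were higher and 2 lower in BALB/c, where 9.57% of all genes passed (5.49% up, 4.09% down), and Ctsh was called, where 2.36% of all genes were.

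The high Nos2 of the C57BL/6 cells at 0 h stands beside these differences, and so do summed marker levels at 0 h. The sum of 8 granulocyte markers was 139 to 152 in BALB/c and 216 to 257 in C57BL/6 cells, that of 4 B cell markers 73.0 to 78.4 and 131 to 156, and that of 8 osteoclast markers, in the direction of Ctsk, 1283 to 1307 and 997 to 1128. Within courses the osteoclast sum went both ways. Where Ctsk was above 0 h, it was 706 to 737 at 8 h of 50 ng/ml and 1089 to 1116 at 8 h of IFN-beta, both below 0 h. It was 1136 to 1177 at 24 h of 0.5 ng/ml, where Ctsk was also above 0 h. At 24 h of IFN-gamma, where Ctsk fell, it was 1117 to 1138. The part of Nos2 and of these markers was not tested. In C57BL/6 cells after 2 h of LPS at 0.5 ng/ml, in which Nos2 was low, Ctsh read 9.96 and 9.80. These were treated cells, and a link between Nos2 and Ctsh was not tested. Over all 32 arrays of each strain Ctsh had its lowest value at 7.83, its median at 8.46 and its highest value at 10.64 in BALB/c, against 9.80, 10.06 and 11.05 in C57BL/6. The lowest C57BL/6 array lay above the BALB/c median, and the ranges overlapped through the late IFN-gamma and LPS groups of BALB/c.

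The strains also differed in how far LPS at 5 ng/ml moved Ctsh. The change at 24 h was 2.35 in BALB/c and 0.89 in C57BL/6, and the difference between these changes was 1.45 ± 0.37 (2.74-fold, adjusted p = 0.0094). It was 1.10 with the batch covariate (adjusted p = 6.2e-09), 1.09 within the larger batch and 0.82 when changes were counted from 1 h (adjusted p = 0.021), which is under the minimum change. The levels at 24 h lay closer than those at 0 h, with 9.88 and 10.61 in BALB/c, against 10.73 and 10.87 in C57BL/6. This was the only cathepsin of 8 that passed and was called, where 15.6% of all genes passed (8.71% up, 6.92% down) and 4.68% were called. With the batch covariate Ctsl passed as well (adjusted p = 0.042), and within the larger batch it did not (adjusted p = 0.13).

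The difference between array batches was largest for Ctsh. In each of the 9 groups split between batches the array of the smaller batch was the higher, by 0.48 to 0.86 with a median of 0.75, and the batch effect of 0.70 ± 0.04 (adjusted p = 7.6e-16) was larger in size than that of 99.3% of genes. Ctsl (0.27), Ctsd (0.18), Ctsc (0.16) and Ctss (0.11) were also higher in the smaller batch, in 9, 9, 8 and 8 of the 9 groups. Ctsa, Ctsk and Ctsz did not pass this test.

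**Figure D3:**
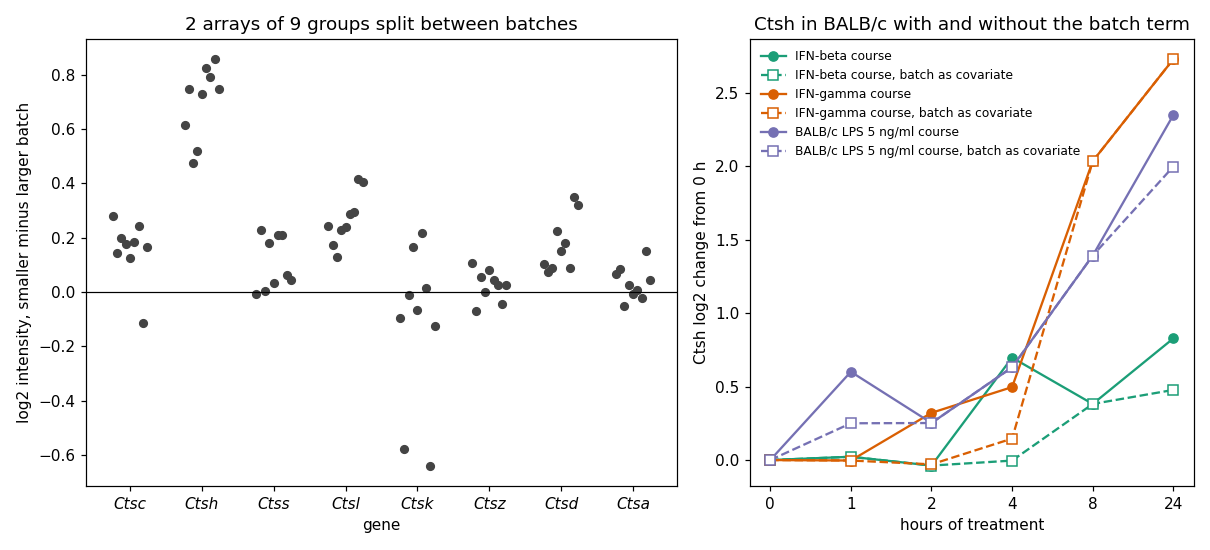
Left, the difference in log2 intensity between the array of the smaller batch and that of the larger batch in the 9 split groups (a point each) for the 8 cathepsins. Right, the log2 change of Ctsh from 0 h against hours of treatment in the 3 BALB/c courses without (solid) and with (dashed) the batch as a covariate. All 9 points of Ctsh lie between 0.48 and 0.86, and its 4 h value with IFN-beta is 0.70 without and -0.0037 with the covariate.

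Over the 32 group means, which share the cells of 2 strains and the array batches, Ctsc and Ctsh had a Pearson correlation of 0.90, and each ran against Ctsl (-0.75 for Ctsc, -0.78 for Ctsh). Ctsa and Ctsd had 0.84. Within the 16 C57BL/6 groups Ctsz ran with Ctsc (0.93) and against Ctsl (-0.84). Within the 16 BALB/c groups these values were 0.52 and -0.0057. Ctsh and Ctsk had -0.67 over all groups, -0.47 within BALB/c and 0.63 within C57BL/6. These are descriptions of the group means.

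Among 6582 genes of sufficient brightness and variation, the group means most like those of Ctsh were of H2-Ab1, an MHC class II beta chain (correlation 0.94), Aoah, an enzyme that deacylates LPS (0.91), and Ctsc (0.90). For Ctsc they were of Ctsh (0.90), H2-Aa, an MHC class II alpha chain (0.89), and H2-Ab1 (0.87). Ctsl was most like Arsb, a lysosomal sulfatase (0.93), Pls3 (0.90) and Ryk (0.90), and Ctsk most like Tlcd2 (0.91), Wdfy1 (0.90) and Ifi27l2a (0.88). Ctsz was closest to P2rx4, an ATP-gated channel (0.94), Tmem38b (0.92) and Lgals3bp (0.91). For the members with the narrowest ranges the nearest were Ifitm6 (0.84), Ms4a6b (0.78) and Mpi (0.76) for Ctss, Zfp414 (0.89), Vegfb (0.86) and Sorbs3 (0.84) for Ctsa, and 4931406C07Rik (0.87), St8sia4 (0.84) and Blvra (0.83) for Ctsd.

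**Figure D4:**
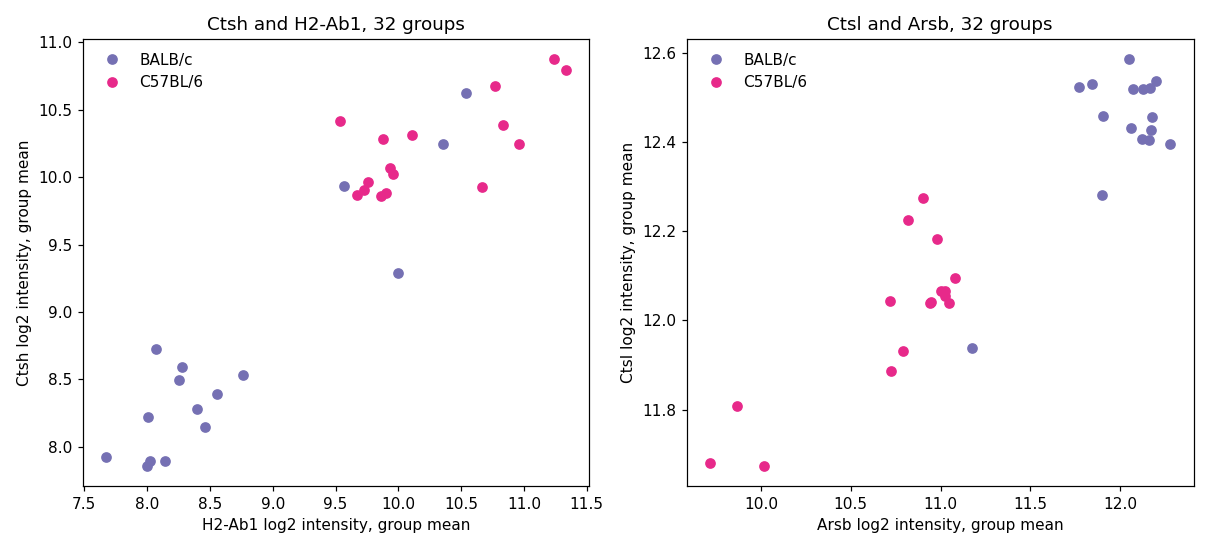
Group means of log2 intensity of Ctsh against H2-Ab1 and of Ctsl against Arsb, a point per group (32 groups), coloured by strain. Correlations over these points are 0.94 and 0.93, and the strains lie largely apart in both panels.

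Other genes of the lysosome were read from 9 lists, with the count of those that passed and the median change of the list at 24 h. Among all genes 15.1% rose and 22.3% fell with IFN-beta, 11.8% and 17.1% with IFN-gamma, and 20.6% and 27.1% with LPS in BALB/c. In C57BL/6 cells these shares were 20.1% and 20% at 0.5 ng/ml, 20.4% and 26% at 5 ng/ml, and 19.9% and 26.5% at 50 ng/ml. Several list counts lie near these shares. The median change of all genes at 24 h lay between -0.033 and -0.0017 in the 6 courses. Of 9 measured partners in class II antigen processing, 7 rose and 0 fell with IFN-gamma (median 1.96, against -0.03 over all genes), 8 rose and 1 fell with LPS in BALB/c (median 1.47, against -0.03), and 1 rose and 2 fell with IFN-beta (median 0.05, against -0.02). The class II transactivator Ciita rose 17.4-fold at 8 h of IFN-gamma and 6.63-fold at 4 h of LPS in BALB/c. H2-Ab1 rose 5.72-fold with IFN-gamma and 5.06-fold with LPS at 24 h. In C57BL/6 cells 7, 8 and 7 of the 9 rose and 1 fell at 0.5, 5 and 50 ng/ml.

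The inhibitors did not move as a block. Cst7, the gene of cystatin F, which inhibits cathepsin C among others, rose in all 6 courses, by 1.36 at 8 h of IFN-beta, and at 24 h by 2.08 with IFN-gamma, 3.70 with LPS in BALB/c, and 2.16, 2.59 and 2.78 with LPS at 0.5, 5 and 50 ng/ml in C57BL/6. Serpinb1a, an inhibitor of neutrophil serine proteases, rose by 1.68 at 4 h of IFN-gamma and fell in the 4 LPS courses, with changes of -1.46 to -1.83 at 24 h. Serpinb6a fell 3.01-fold with LPS in BALB/c. In the IFN-beta and IFN-gamma courses 1 and 2 of the 10 measured inhibitors rose, and 1 and 0 fell. With LPS 2 rose and 3 fell in BALB/c, and in C57BL/6 1 rose and 3 fell at 0.5 ng/ml, and 2 rose and 2 fell at 5 and at 50 ng/ml. The counts in BALB/c and at 5 and 50 ng/ml lie near the shares of all genes.

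Of 9 genes for processing enzymes and partners of cathepsins, 7 rose and 1 fell with IFN-beta (median 0.44), 4 rose with IFN-gamma, and 3 rose and 3 fell with LPS in BALB/c (median -0.09). Lgmn, the asparaginyl endopeptidase that cleaves several cathepsins, was 2.06-fold higher with IFN-beta than with LPS in BALB/c at 24 h. Of 20 measured glycosidases, lipases and sulfatases, 14 fell and 2 rose with LPS in BALB/c (median -0.35), and 7 fell and 3 rose at 0.5 ng/ml in C57BL/6 (median -0.08), and 13 fell and 2 rose at 5 and at 50 ng/ml (medians -0.17 and -0.22). With IFN-gamma 4 rose and 2 fell. Pla2g15, the lysosomal phospholipase A2, fell 3.38-fold at 8 h of 50 ng/ml, and Arsb fell 2.00-fold at 24 h of IFN-gamma.

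Of 10 measured genes of sorting to the lysosome, 6 fell and 1 rose with LPS in BALB/c, and Sort1, the sorting receptor sortilin, fell 3.76-fold there and 2.63-fold with IFN-gamma at 24 h. Of 16 measured vacuolar ATPase genes 4 rose and 3 fell with LPS in BALB/c, shares near those of all genes, and the d2 subunit gene Atp6v0d2 fell 3.20-fold. It fell 5.78-fold at 50 ng/ml in C57BL/6. Of 15 lysosomal membrane genes 5 rose and 5 fell with LPS in BALB/c, with the chloride transporter gene Clcn7 3.27-fold up at 8 h, and 8 rose and 2 fell with IFN-beta. Of the 4 MiT/TFE factors, the family that drives lysosomal genes, 1 rose and 3 fell with each interferon, and 2 rose and 2 fell with LPS in BALB/c. Tfec rose in all 6 courses (by 1.31 at 4 h of IFN-beta and 2.58 at 4 h of LPS in BALB/c) and Tfeb fell by 1.62 at 4 h of IFN-beta, when both arrays were of the smaller batch.

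Of 5 other cathepsin genes, Ctse, an aspartic protease outside the lysosomal group studied here, rose by 1.02 with IFN-beta and by 1.08 with IFN-gamma at 24 h, and at 0 h was 12.5-fold higher in BALB/c cells than in C57BL/6 cells. Ctsf, a cysteine protease, was 2.05-fold higher in BALB/c cells at 0 h.

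**Figure D5:**
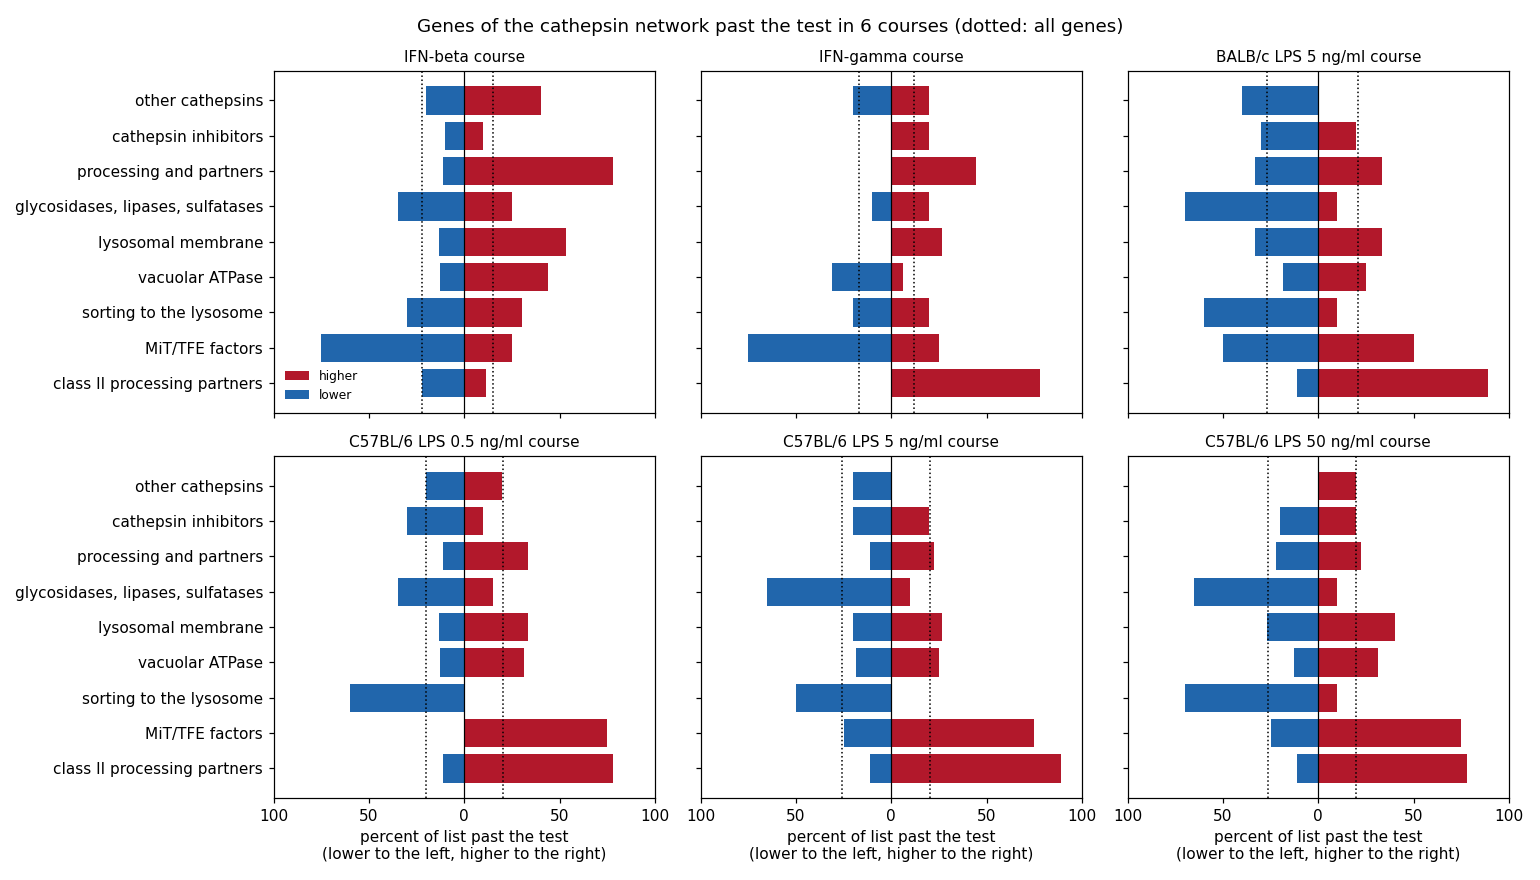
Percent of the measured genes of each of the 9 lists that passed the test in each of the 6 courses, higher to the right and lower to the left, with dotted lines at the percent of all genes. The class II partners lie above the share of all genes for rises with IFN-gamma (7 of 9), and the glycosidases, lipases and sulfatases for falls with LPS in BALB/c (14 of 20).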

How the data were processed

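RNA from each well (250 ng) was hybridised to mouse gene microarrays, 1 array per well. The deposited values are linear intensity per probe set, normalized by the authors with Affymetrix Expression Console 1.1, per the submitters' processing notes. The summarisation method and background correction are not given in the sources used here. Intensities ran from 2.49 to 17782 and array medians from 25.6 to 29.0. The number of arrays limits the precision.

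From these, log2 intensity was taken with R 4.3.3 and its data.table package (1.17.8). Of 35556 probe sets 23099 had an annotated gene, with a single symbol for 21218 and several for 1881 (not used), and 12457 had none. The brightest probe set by mean over all arrays stood for each of 18820 genes, and 1386 genes had several. A linear model of 32 group means (32 residual degrees of freedom) was fitted with limma 3.58.1. The 12 comparisons were tested with Benjamini-Hochberg adjustment over all genes. The strains at 0 h were compared by limma's moderated test of a single difference, and the other comparisons by F-tests. The model and its F-test were tried on simulated data for the IFN-gamma course (18820 genes). They recovered 99% of 100 genes changed by 1.5 and 100% of 100 changed by 2.5 on the log2 scale. The simulated arrays had independent noise, no batch and changes at 24 h alone. These rates therefore do not cover the batch of the measured arrays.

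The batch was split on a principal component of the probe sets without a gene, and an array stood apart when 10 or more genes differed from its partner by over 1.5. Replicate numbers did not pair the arrays. The deviations of same-numbered arrays from their group means correlated between groups at -0.47 to 0.55 (median 0.0046). Of the pairs of groups 9.27% were over 0.1. Alternatives covered scaling, offset, filters, probe sets, batch, baseline, block and each array left out. The text names all cathepsins, from each list up to 4 called genes per comparison with the largest change, and the 3 genes most like each cathepsin among those above the 40th percentile with an SD of at least 0.25. Genes of the lists without a probe set of their own were not tested. The members and lists were chosen with earlier results of these data known. Promoters came from RefSeq and were searched with Python 3.11.15.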

Additional observations from a re-analysis of the deposited data

Results flagged for a closer look

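The strains differed in the response of Ctsh, the lysosomal aminopeptidase gene, to LPS at 5 ng/ml. At 24 h the change was 1.45 ± 0.37 larger in BALB/c cells than in C57BL/6 cells by limma's test of the difference itself (adjusted p = 0.0094), with 2.35 in BALB/c and 0.89 in C57BL/6. Of the BALB/c pair at 24 h, 1 array belonged to the smaller batch, in which Ctsh read higher, and the difference was 1.10 with the batch as a covariate. Counted from 1 h it was 0.82 (adjusted p = 0.021), under the minimum change, so that no cathepsin was called. BALB/c cells stood lower than C57BL/6 cells at 0 h (-2.01), where in C57BL/6 Nos2 was also high. The part of either in the difference was not tested.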

How the results depend on the processing

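Of 41 pairs of a cathepsin and a comparison that passed the test, each kept its direction at the time of its largest difference under the alternatives that gave it a value (27 could be counted from 1 h and 40 within the larger batch). That difference became -0.0092 for Ctsa with IFN-beta after quantile normalization, and for Ctsl at 0.5 ng/ml the batch covariate moved the largest difference to 24 h, with -0.36. All 41 also stayed past it with the batch as a covariate, with the batch as a covariate and the arrays that stand apart left out (an alternative added after seeing the data), with the replicate block, with dim probe sets left out, with an offset of 16 and with the mean of all probe sets of a gene. With only the arrays compared in the fit 10 missed the threshold, within the larger batch 3 did, and centring, quantile normalization, limma's trend and robust settings, and leaving out the arrays that stand apart lost 1 each. Fitted on only the arrays compared, limma gave an adjusted p of 0.29 for Ctsa and 0.23 for Ctsz with IFN-beta. With IFN-gamma it gave 0.068 for Ctsk and 0.096 for Ctss, and with LPS in BALB/c 0.056 for Ctsz. At 0.5 ng/ml it gave 0.12 for Ctsh, 0.089 for Ctsk and 0.24 for Ctsl, and at 5 ng/ml 0.097 for Ctsl. For Ctss in IFN-gamma against LPS it gave 0.32. The counts of cathepsins called (0 for IFN-beta, 2 for IFN-gamma, 2 for LPS in BALB/c and 0 at each C57BL/6 dose) rested on the minimum change of 1. Without a minimum they were 5 for IFN-beta, 5 for IFN-gamma, 3 for LPS in BALB/c, 5, 4 and 5 for LPS at 0.5, 5 and 50 ng/ml, 4 for IFN-beta against IFN-gamma, 2 for IFN-beta against LPS, 3 for IFN-gamma against LPS and 4 between strains at 0 h. With a minimum of 0.5 they were 2 for IFN-beta, 3 for IFN-gamma, 4, 3 and 3 at 0.5, 5 and 50 ng/ml, 4, 2 and 2 in the same 3 contrasts of treatments and 3 at 0 h. At 50 ng/ml 1 was called after centring (Ctsh) and 1 after quantile normalization (Ctsk). With the batch covariate 1 was called for IFN-gamma against LPS (Ctsc), and likewise 1 with the arrays that stand apart left out too. From 1 h, with or without the batch covariate, 1 was called for LPS in BALB/c (Ctsh) and 0 for the strains' responses, and with the batch covariate and without the arrays that stand apart 1 was called for LPS in BALB/c (Ctsh). The replicate numbers did not pair the arrays, and with the replicate number as a block the counts called were 0 for IFN-beta, 2 for IFN-gamma and 2 for LPS in BALB/c, as without it. Leaving out each array in turn gave 0 to 1 called for IFN-beta (Ctsh without IFN-beta 24 h replicate 1), 0 to 1 at 0.5 ng/ml (Ctsk without C57BL/6 0 h replicate 2, Ctsh without 24 h replicate 1), 0 to 2 at 50 ng/ml (Ctsh and Ctsk without 0 h replicate 2, Ctsk without 8 h replicate 1) and 1 to 2 at 0 h (Ctsk added without C57BL/6 0 h replicate 2), and moved no other count. The causes were not tested. All 8 members lay above the dim level of 4.50, and whether the scale is compressed near its top (14.12), where Ctsd reached 13.60, was not tested.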
